A study of Mus musculus with 2 samples.

Results

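Cluster 8 of the 12 clusters of all cells is the group of cells led by genes of salivary acinar secretion, among them its given markers Dcpp1, Dcpp3 and Prol1. It held 289 of 15605 cells, chosen as the columns of that cluster in the authors' tables of cluster means. Of these, 264 came from the ligated library and 25 from the mock library. The ligated library came from salivary glands of 14-week-old female C57BL6/J mice whose main ducts carried a metal clip for 14 days. The mock library came from mice of the same strain, sex and age whose ducts were located but not clipped 14 days earlier. The sample titles name the submandibular gland alone, while the extraction protocol names the submandibular and sublingual glands, so the presence of sublingual tissue is not settled. Each library was made from 2 glands, and the labels do not say whether these came from 1 mouse. Both cell suspensions were enriched for stroma by depletion of EpCAM-bearing and Ter119-bearing cells and of dead cells, so epithelial cells are those that escaped the beads. As each condition was sampled by a single library, differences have no replicate check and compare these libraries, not the conditions.

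Acinar cells are the secretory cells of a salivary gland. They make saliva proteins in a large endoplasmic reticulum, store them in granules and release them with fluid into the ducts. Dcpp1, Dcpp2 and Dcpp3 encode closely related secreted proteins named after the demilune cells, the serous cells that cap mucous acini. Prol1, also called Muc10, encodes a mucin of the submandibular gland. Ligation of the duct is a model in which acini shrink and acinar secretion is lost.

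The Dcpp genes lie next to each other in the genome and moved together across clusters, so the sequence before their starts is shown here. Positions are on GRCm38.p6, and the sequences are those of RefSeq. Dcpp1 spans chr17:23880669-23882853, Dcpp2 chr17:23898722-23900788 and Dcpp3 chr17:23917419-23919441. Prol1 is at chr5:88317312-88328817 and Mucl2, which encodes a mucin-like salivary protein, at chr15:103895855-103899312. All 5 are protein-coding. The 30 bases around TATAA, the core of a TATA box, are given for each Dcpp gene, with the motif in capitals. They span chr17:23880838-23880867, chr17:23898679-23898708 and chr17:23917417-23917446 on the plus strand, and the Dcpp1 stretch and all but the first 2 bases of the Dcpp3 stretch lie inside the annotated gene, which has an earlier alternative start.
Dcpp1: gccccagaagcaTATAAggggaggggacag
Dcpp2: gccccagaagcaTATAAggggaggggaaag
Dcpp3: gccccagaagcaTATAAggggagggaaaga
The 200 bases before the start follow for one Dcpp gene and for Prol1 and Mucl2, which were high in the cluster in both libraries, at chr17:23898522-23898721 (plus strand), chr5:88317112-88317311 (plus strand) and chr15:103899313-103899512 (minus strand).
Dcpp2: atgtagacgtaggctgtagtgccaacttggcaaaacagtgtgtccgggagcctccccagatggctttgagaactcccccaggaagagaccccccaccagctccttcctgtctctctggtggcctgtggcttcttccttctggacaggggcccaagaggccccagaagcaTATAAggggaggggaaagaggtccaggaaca
Prol1: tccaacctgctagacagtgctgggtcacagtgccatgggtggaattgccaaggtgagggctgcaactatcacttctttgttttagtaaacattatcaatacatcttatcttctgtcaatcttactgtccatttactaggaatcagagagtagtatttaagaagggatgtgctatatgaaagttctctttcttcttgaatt
Mucl2: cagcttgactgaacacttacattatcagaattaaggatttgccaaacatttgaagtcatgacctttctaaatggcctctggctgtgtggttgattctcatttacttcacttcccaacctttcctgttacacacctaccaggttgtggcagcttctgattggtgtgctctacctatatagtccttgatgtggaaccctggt

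Over the RefSeq window of 250 bases before to 50 after the start, the 3 Dcpp promoters were 93.8% to 96.4% identical to each other. Each was 43.5% to 49.2% identical to those of Prol1, Mucl2 and Scgb1b27. TATAA on the gene's own strand began 26 bases before the start in Dcpp1, 31 in Dcpp2 and 29 in Dcpp3, and was not in the windows of Prol1 and Mucl2. In that of Scgb1b27 it began 42 bases after the start. It occurs in 17.5% of all 32851 promoter windows, and this motif was chosen after the sequences were seen. CATATG and CAGCTG, which read the same on both strands and do not overlap with TATAA, were in none of the 6 windows searched, those of the 3 Dcpp genes, Prol1, Mucl2 and Scgb1b27. They occur in 3.91% and 16.3% of all windows. The transcripts are alike too, with 95.4% identity between Dcpp2 and Dcpp3 and 83.7% between Dcpp1 and each of these. Bases without a partner count against identity, and the Dcpp1 transcript is shorter, with 617 bases against 689 and 678. It shared 577 identical bases with Dcpp2 over an aligned length of 689. Reads may therefore have been assigned among the 3 genes with error, and their sum is safer than their order.

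Cluster 8 made up 2.31% of the 11406 ligated cells (95% interval by the exact Clopper-Pearson method, 2.05% to 2.61%) and 0.595% of the 4199 mock cells (0.386% to 0.878%). Only counting error enters these intervals, and the bead depletion can set both shares. The number of UMIs (unique molecular identifiers, 1 for each captured transcript) was recovered for all 25 mock cells and for 200 of the 264 ligated cells. The mock cells held 783 to 14691 UMIs with a median of 5006. The ligated cells held 501 to 64065 with a median of 975.5, and 51% of those recovered were below 1000. One ligated total stood at 64065 UMIs, and the next at 15187. The former may be a doublet or an error of recovery, which was not tested. It is part of the pooled UMIs of the recovered ligated cells used below. In the other clusters 2019 recovered ligated cells had a median of 7358 and 591 recovered mock cells one of 6682. Recovery was sparse in large clusters, as in cluster 0 with 145 of 2948 ligated and 27 of 2363 mock cells. It favours deep cells, so these medians can be too high. The cluster with the lowest medians was ductal-gene cluster 7, with 973 and 1071. Comparison with the other clusters is limited by this sparse recovery. Within cluster 8 the recovered cells differed in depth between libraries, the ligated ones being the shallower. Whether this gap plays a part in the differences between the libraries was not tested.

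**Figure D1:**
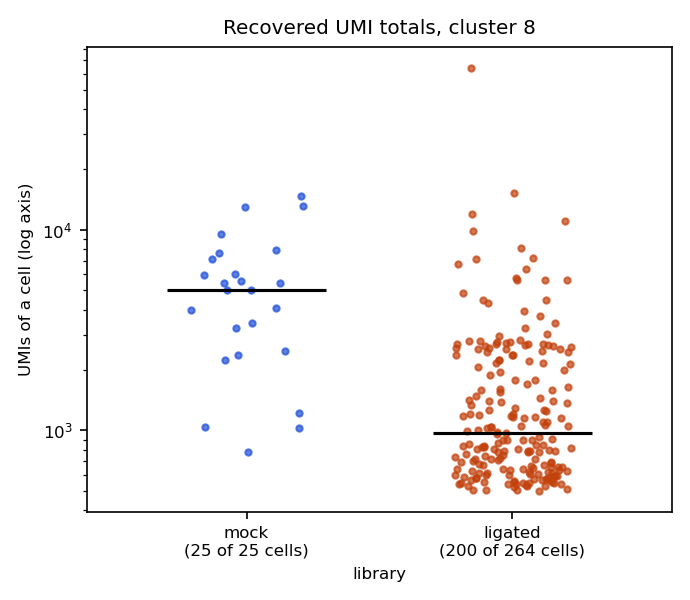
UMIs of each cell of cluster 8 (vertical log axis) whose total could be recovered, by library, with 1 point for each cell and a bar at the median. The ligated median is 975.5, with 1 total, which may be an error, at 64065, while the mock median is 5006.

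Levels are given as UMIs per 10000, averaged over a cluster's cells. In cluster 8 of the 2 libraries together, 17 of the 1474 genes with a level of at least 1 stood at least 2 times above the highest of the other 11 clusters, which is 1.15%. The clusters were made from these genes, so this ranking describes the cluster and tests nothing. Dcpp2 led the ranking with 33.4 against 0.277 in fibroblast-gene cluster 3. Dcpp3 followed with 50.2 against 0.565, and Dcpp1 with 20.0 against 0.312. Scgb1b27, a subunit of salivary androgen-binding protein, stood at 196 against 5.28, Prol1 at 137 against 4.32 and Mucl2 at 479 against 17.2, each with cluster 7 next. Others of the 17 were Pip (prolactin-induced protein), Car6 (the secreted carbonic anhydrase), Bpifa2 (parotid secretory protein), Scgb2b26, Scgb2b27, Wfdc12 and Wfdc18. The rest were 2310057J18Rik, which is on the list of acinar products, and Mup5, Snhg9 and Gm47283, which are not. The given markers are thus among the leading genes, but the Dcpp levels come from the 25 mock cells, as the split by library shows.

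The 2 libraries filled that label in different ways. With the ligated columns alone, 12 of the 1589 genes with a level of at least 1 met the same rule. All 12 were among the 17. With the mock columns alone, 24 of 551 such genes met it, of which 14 were among the 17. The 3 Dcpp genes, Bpifa2 and Wfdc18 met it only in the mock columns. Prol1, Mucl2, Pip, Car6, Wfdc12, Mup5, Scgb1b27, Scgb2b26 and Scgb2b27 met it in both, and 2310057J18Rik, Snhg9 and Gm47283 in the ligated columns only. In the mock columns 2310057J18Rik stood at 0.862 against 0.00117 in the next cluster, and missed the rule only by the minimum level of 1.

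**Figure D2:**
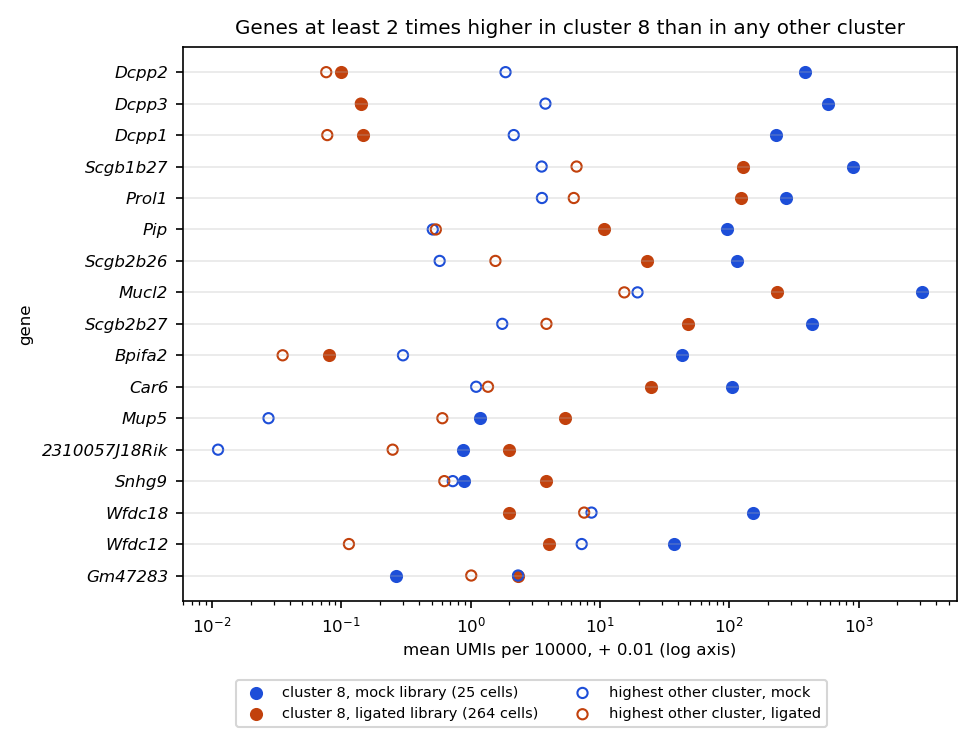
Level of the 17 genes at least 2 times higher in cluster 8 than in any other cluster, as mean UMIs per 10000 plus 0.01 on a log axis. Filled points are cluster 8 and open points the highest other cluster of the same library, and the Dcpp genes of ligated cells lie on or near the open points while Prol1 and Mucl2 lie far to the right of them in both libraries.

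Dcpp3 stood at 0.132 UMIs per 10000 in ligated cells of the cluster and at 579 in mock cells. The highest other ligated cluster also stood at 0.132, so in the ligated library Dcpp3 did not mark the cluster. Dcpp1 was at 0.139 and 229, and Dcpp2 at 0.0896 and 385. All 3 ligated values are close to 0.0719, which is 3 of the pooled UMIs of the recovered ligated cells, expressed per 10000, so no size of difference is given for them. In the mock library the next cluster for each was cluster 3, with 2.15 for Dcpp1, 1.86 for Dcpp2 and 3.78 for Dcpp3. Bpifa2 followed the same pattern, with 0.0706 in ligated and 42.9 in mock cells.

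Prol1 behaved otherwise. It stood at 124 in ligated and 276 in mock cells of cluster 8, against 0.443 to 6.28 in the other ligated clusters and 0.143 to 3.56 in the other mock clusters. Mucl2 was at 232 and 3085, against 1.10 to 15.4 and 2.31 to 19.5. Scgb1b27 was at 129 and 903, against 0.350 to 6.59 and 0.0349 to 3.54. No other cluster of either library came near these values. Scgb2b27 stood at 47.7 and 434, Scgb2b26 at 23.3 and 114, Car6 at 24.7 and 105 and Pip at 10.7 and 96.5. Wfdc18, a whey acidic protein family member, was at 1.97 in ligated cells, below the 7.55 of the highest other ligated cluster, and at 152 in mock cells. Mup5, of the major urinary proteins, ran the other way with 5.36 and 1.18, as did 2310057J18Rik with 1.97 and 0.862. Per 10000 UMIs outside the acinar products, a scale described with the comparison of the libraries, 2310057J18Rik was at 2.10 and 2.42 and Mup5 at 5.70 and 3.32, so neither differed by the size rule used there and the former changed direction.

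**Figure D3:**
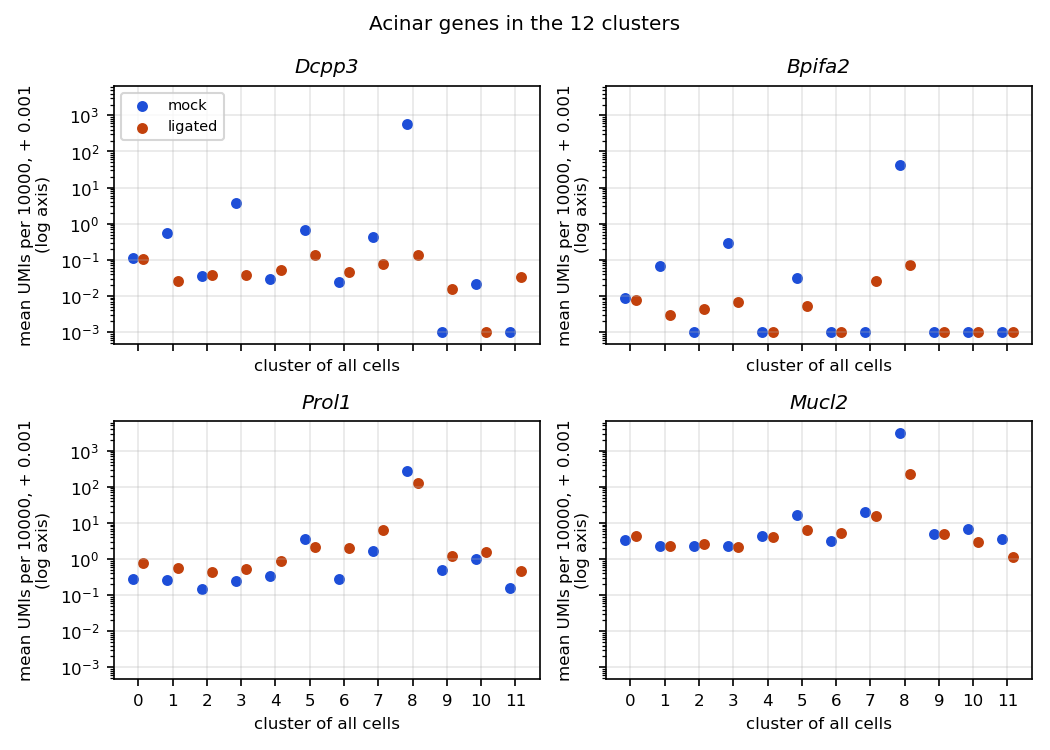
Level of Dcpp3, Bpifa2, Prol1 and Mucl2 in the 12 clusters, as mean UMIs per 10000 plus 0.001 on a log axis, mock and ligated side by side. Cluster 8 is the highest point for Prol1 and Mucl2 in both libraries, while for Dcpp3 its ligated point (0.132) lies level with another ligated cluster.

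Over the 12 clusters with both libraries together, the genes most like Dcpp1 were Dcpp2 (Pearson r 0.99 of log2 levels plus 0.1), Dcpp3 (0.99) and Bpifa2 (0.98). Pip (0.90), 2310057J18Rik (0.90), Snhg9 (0.89), Car6 (0.89), Mup5 (0.88), Scgb2b26 (0.87) and Scgb2b27 (0.87) came next. The 12 points share libraries and are dominated by cluster 8, so these values are a description.

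Acinar products together took 64.4% of the mean profile of the 25 mock cells and 6.01% of that of the 264 ligated cells. This sum covers the 19 listed secreted products with a row in the tables and 2 genes added after their levels were seen, Scgb1b27 and Scgb2b27. The 19 alone took 51.0% and 4.24%. The same 21 genes summed to 2.64 to 43.8 UMIs per 10000 in the other ligated clusters and 3.61 to 38.6 in the other mock clusters, with cluster 7 highest in both. The Dcpp genes took 11.9% of the mock profile and 0.00361% of the ligated one. Within the acinar sum, Prol1 made up 20.7% in ligated and 4.29% in mock cells, Mucl2 38.7% and 47.9%, and Scgb1b27 21.4% and 14.0%. The ligated cells thus carried less acinar RNA and a different mixture of it. A mean cannot tell many cells with some acinar RNA from few cells with much. Since no cell can exceed its own UMIs, the sums require at least 17 of the 25 mock cells and at least 16 of the 264 ligated cells to hold acinar UMIs.

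Summed over cells with each cell counted by its share of UMIs, the cluster held 76.0% of the Prol1 sum of all ligated cells and 80.2% of that of all mock cells. These are not shares of molecules, since the ligated cells of the cluster are shallow. For Mucl2 the shares were 59.8% and 81.4%, and for Scgb1b27 71.1% and 86.4%. For Dcpp3 they were 5.07% and 90.5%, and for Wfdc18 11.3% and 64.1%, so in the ligated library most of the sum of these 2 genes lay in other clusters. Smgc and Muc19, genes of the mucous secretion of the sublingual gland, were at 0.0540 and 0.0140 in ligated cells and listed at 0 in the mock cells, where 3 of the 137475 pooled UMIs are 0.218 per 10000. Lyz1 and Prom2 were listed at 0 in both.

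Regulators and transporters of acinar cells were low in both libraries. Aqp5, the water channel of the acinar surface, stood at 0.379 in ligated and 1.34 in mock cells, against 0.0279 in the highest other cluster of both libraries together. Bhlha15, the transcription factor Mist1 of secretory cells, was at 0.0481 and 0.410, the latter being 3 UMIs in 3 mock cells. Spdef, Elf5 and Etv1, each a factor of the Ets family, rested on 4 UMIs each in the mock cells, at 0.565, 0.490 and 0.946, against 0.00464, 0.0122 and 0.713 in ligated cells. Cldn10, a claudin of the tight junction, stood at 0.355 and 0.749, and Slc12a2, the chloride importer of fluid secretion, at 0.698 and 1.03. Sox10 was at 0.302 in ligated cells and listed at 0 in mock cells. These are few molecules, and their mock values can rest on single cells.

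General epithelial genes were present at a small part of their level in cluster 7, where they were highest. The median over the genes was 5.65% of the cluster 7 level in ligated and 16.6% in mock cells. Epcam, the target of the bead depletion, stood at 0.319 in ligated and 0.254 in mock cells against 3.89 in the highest other cluster, and the mock value was 4 UMIs in 4 cells. Krt18, a keratin of simple epithelia, was at 0.946 and 2.00 against 18.2. For ductal genes the medians were 3.86% and 2.95% of cluster 7. Klk1, the kallikrein of duct cells, stood at 19.6 in ligated and 7.39 in mock cells against 666 in cluster 7.

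RNA of other cell types was found in the ligated cells of the cluster. The median fibroblast marker stood at 18.4% of its level in cluster 3, and the highest of the other ligated clusters reached 2.98%. All 11 fibroblast genes were above 0, with a summed level of 57.5 UMIs per 10000. Dcn, a proteoglycan of the matrix, stood at 12.9, Gsn at 11.8 and the collagen gene Col3a1 at 10.1. In the mock cells the summed level was 0.856, and 7 of the 11 genes were listed at 0, among them Col1a2, Col3a1, Lum and Pdgfra. The other 4 genes gave 5 UMIs in 4 of the 25 cells, 2 of Dcn and 1 each of Col1a1, Gsn and Clec3b. The fibroblast RNA of this cluster was thus in its ligated cells.

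Endothelial markers stood at 27.6% of cluster 0 in the ligated cells and 1.72% in the mock cells. Of the other ligated clusters, cluster 4 was higher with 70.5%, as was cluster 10 with 47.4%. Pecam1, an adhesion protein of endothelium, was at 5.00 and 0.117, the latter being 1 UMI in 1 mock cell, and Egfl7 at 12.8 and 0.573. All 12 listed genes were above 0 in ligated and 9 of 12 in mock cells, with sums of 52.1 and 3.37. Mural genes were at 8.33% of cluster 6 in ligated cells, with 0 as the mock median, 11 of 11 genes and 5 of 11 genes above 0, and sums of 10.3 and 0.800.

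Immune genes were also found in the ligated cells. Macrophage and monocyte genes stood at 9.42% of cluster 5, T cell genes at 12.03% of cluster 2 and natural killer genes at 32.2% of cluster 1. Mock medians were 0, 0 and 6.32%. For each list another ligated cluster was higher, at 27.7% (cluster 10), 48.7% (cluster 11) and 41.7% (cluster 2). Of macrophage genes 13 of 13 were above 0 in ligated cells (sum 21.1) and 2 of 13 in mock cells (sum 0.440), where Csf1r, C1qb and Lyz2 were listed at 0. Of T cell genes 11 of 11 and 3 of 11 were above 0, with sums of 10.8 and 0.645. All 11 natural killer genes were above 0 in both, with sums of 27.4 and 4.49. All 5 UMIs of Klrk1, a receptor of natural killer cells, came from the mock cell with 14691 UMIs. Schwann genes (3.11% of cluster 9 in ligated cells, 0 in mock) and erythroid genes (0.554% of cluster 10 and 0.0232%) were low, and in ligated cells neutrophil genes were listed at 0 but for Csf3r at 0.0153. Lymphatic endothelial genes were at 11.3% of cluster 4 in ligated cells and 0 in mock. B and plasma cell genes, which no cluster held at a high level, were at 28.9% of cluster 5 and 0.

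Among the 11 clusters outside each list's own, ligated cluster 8 was the highest for fibroblast, mural, Schwann, erythroid, ductal and general epithelial genes. For the endothelial list it ranked behind 2 clusters. For the macrophage, T cell, natural killer, lymphatic endothelial, and B and plasma cell lists it had rank 2. The mixture of cell types was thus seen in the ligated cells of the cluster, while in its mock cells the medians of the fibroblast, mural, macrophage, T cell and Schwann lists were 0. Free RNA in the droplets, cells stuck together and shallow cells grouped by depth were not tested as sources, and doublets could not be called from cluster means.

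**Figure D4:**
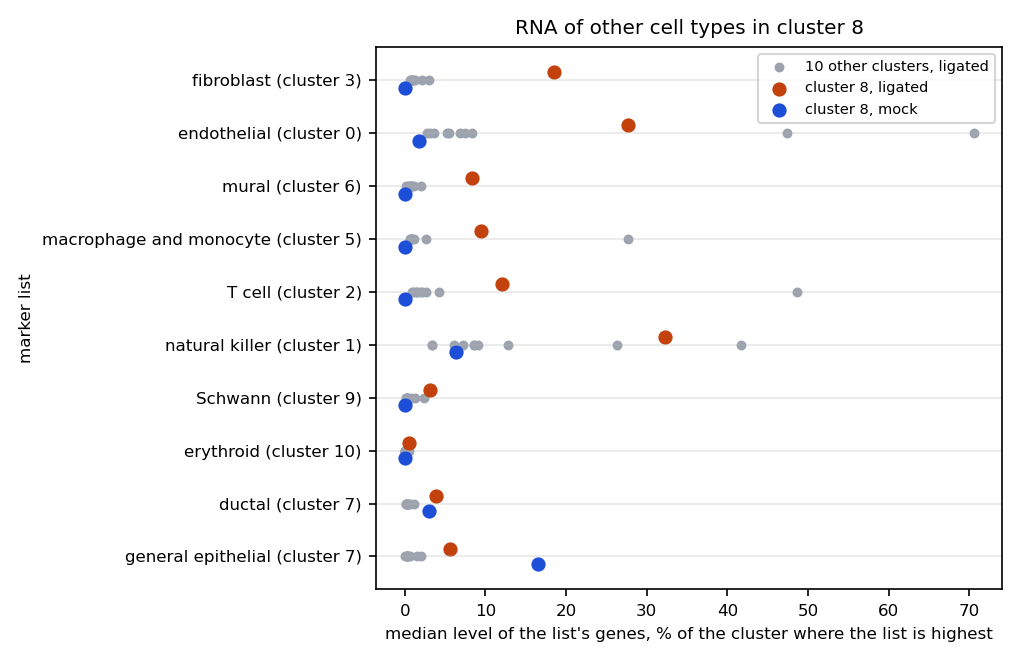
Median level of each marker list as a percent of its level in the cluster where it is highest (named in brackets), for ligated and mock cells of cluster 8 and for the 10 other clusters of the ligated library. The ligated fibroblast point (18.4%) lies to the right of all other clusters, and the mock points for fibroblast, mural, macrophage, T cell and Schwann genes lie at 0.

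Some ligated cells had been placed by the authors in a second analysis of cells with Pdgfra, Pdgfrb or Gli1. Single UMIs allowed 60 of the recovered ligated cells to be traced, and 27 of them (45%, exact interval 32.1% to 58.4%) were in that subset. Of these 27, 18 fell into subset cluster 1, 5 into cluster 0 and 4 into cluster 3. Of 7 traceable mock cells 0 were in it, and these 7 alone give an upper bound of 41.0%. Traceable cells are not a random sample, since each must hold the only UMI of some gene. Pdgfra stood at 1.53, Pdgfrb at 1.58 and Gli1 at 0.101 in ligated cells, and all 3 were listed at 0 in mock cells. None of the 25 mock cells thus held a UMI of these genes, so a subset chosen by such UMIs would hold none of them.

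For the comparison of ligated with mock cells, a difference is log2 of the ligated level plus 0.1 over the mock level plus 0.1. A gene was counted as higher or lower where the higher level was at least 0.5 and the size at least 1. Of 9819 genes with a mean of at least 0.05, 26.6% were higher and 2.14% lower in ligated cells, with a median difference of 1.36. Levels are shares of a fixed total, so a large acinar share lowers the level of every other gene in the mock cells. On a scale of UMIs outside the 21 acinar products, added after the data were seen, 17.4% were higher and 11.2% lower, with a median of 1.01. Centring all differences on their median left 1154 genes higher and 683 lower. Levels on the scale outside the acinar products are 1.06 times the ligated and 2.81 times the mock values. These factors were applied to the mean profiles, so the acinar share of each single cell does not enter. Genes listed at 0 in the mock cells number 13434 of 20140 against 6762 in ligated cells. With zeros set at the 3-UMI level (3 of the pooled UMIs expressed per 10000, 0.218 for mock and 0.0719 for ligated cells), the median over the 9819 genes was 0.64.

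Acinar secreted products were lower in ligated cells in 12 of the 15 with values and higher in 1, with a median of -3.18. On the scale outside the acinar products it was 13 lower and 0 higher, with -4.58. That scale multiplies mock levels by 2.81 and ligated levels by 1.06, so it lowers this median by construction. The 3 Dcpp genes and Bpifa2 were among the 12, and since their ligated levels are so low, the size of their differences is set by the 0.1 added. Wfdc18 had a difference of -6.19, Mucl2 -3.73, Scgb1b27, which is not on the list, -2.81, and Prol1 -1.15. Trim32, a ubiquitin ligase that ranked among the 10 lowest, stood at 2.04 in mock cells through 4 UMIs in the single cell of 783 UMIs. Acinar regulators and transporters had 4 lower and 2 higher of 19 with a median of -0.36, and 12 lower and 1 higher with -1.69 outside the acinar products. Both groups were below the median of all genes on either scale.

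Genes of the secretory pathway and endoplasmic reticulum stress had 17 higher and 0 lower of 34, with a median of 1.27, below that of all genes. Outside the acinar products 5 were higher and 8 lower, with a median of 0.09. The list was not of 1 kind. Sec61b, a subunit of the translocation channel, stood at 3.80 in ligated and 5.82 in mock cells, a difference of -0.60 that became -1.99 on the second scale. Sec61g (4.04 and 4.88) and Ssr4 (2.57 and 2.83), of the same machinery, had differences of -0.27 and -0.13, which became -1.65 and -1.51. The chaperone gene Hspa5 was at 4.72 and 0.416, and stayed higher on the second scale with 2.01. Creld2, a gene of the stress response, was at 0.727 and 0.0272, the latter 1 UMI in 1 mock cell.

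Mitochondrially encoded genes had 9 higher and 0 lower of 13 with a median of 1.40, and 1 higher and 1 lower with 0.01 outside the acinar products. mt-Co1, a subunit of cytochrome c oxidase, stood at 41.9 and 11.5. Nuclear retained RNAs were higher in 5 of 5 with a median of 3.61, and in 4 of 5 on the second scale with 2.22. Malat1 was at 379 and 30.8. Immediate early and dissociation genes were higher in 15 of 21 with a median of 2.10, and 10 higher and 1 lower with 1.23 on the second scale. Fos stood at 3.06 and 0.219, the latter being 5 UMIs in 2 mock cells.

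On the first scale the lists of stromal and immune cells that follow were also above the median of all genes. Fibroblast genes were higher in 9 of 11 with a median of 5.14, which fell to 4.00 with zeros at the 3-UMI level. Genes of fibrillar matrix were higher in 15 of 17 with 3.77 (2.50 with such zeros), and Mgp, a matrix protein that binds calcium, stood at 50.0 and 1.02, the latter 2 UMIs in the cell of 783. Endothelial genes were higher in 10 of 12 with 3.22, macrophage and monocyte genes in 7 of 12 with 3.04 and T cell genes in 6 of 10 with 2.58. With zeros at the 3-UMI level these 3 medians were 3.03, 1.37 and 1.78, and outside the acinar products the endothelial one was 2.07. Erythroid genes were higher in 4 of 5 with 3.01 (1.34 with such zeros). Interferon and antigen presentation genes were higher in 16 of 20 with 2.97. Among them Cd74, the invariant chain of class II molecules, stood at 12.04 and 0.0560, and B2m at 18.5 and 2.97. Apoe, a lipid carrier, had the largest difference of the genes ranked by the rule for named genes, with 33.5 and 0.0418, the latter being 1 UMI in 1 mock cell. Outside the acinar products the fibroblast, erythroid and interferon medians were 4.61, 1.75 and 1.91. Natural killer genes were higher in 10 of 11 with 2.26, and in 5 of 11 outside the acinar products with 0.92, below the 1.01 of all genes.

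Ductal and general epithelial genes differed little on the first scale and stood below the median of all genes, 1.36. These lists share genes, among them Krt7, Krt8 and Krt18. Of ductal genes 1 was higher and 3 lower of 14 with a median of 0.19, and general epithelial genes had 1 higher and 2 lower of 10 with 0.02. Outside the acinar products the medians were -0.93 and -1.04, below the 1.01 of all genes. With zeros at the 3-UMI level they were -0.51 and -0.29, so their direction is not settled. Klk1 had a difference of 1.39 on the first scale and 0.00 on the second. Mural genes had 4 higher of 11 with 1.87, Schwann genes 1 of 8 with 1.42 and cell cycle genes 3 of 12 with 1.21, and none was lower on this scale, where 26.6% of all genes were higher. With zeros at the 3-UMI level these medians were 1.05, 0.27 and -0.13, and outside the acinar products cell cycle genes had 1 higher and 2 lower. Genes of ductal progenitors and injury had 4 higher and 0 lower of 10 with 1.42, near the 1.36 of all genes.

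**Figure D5:**
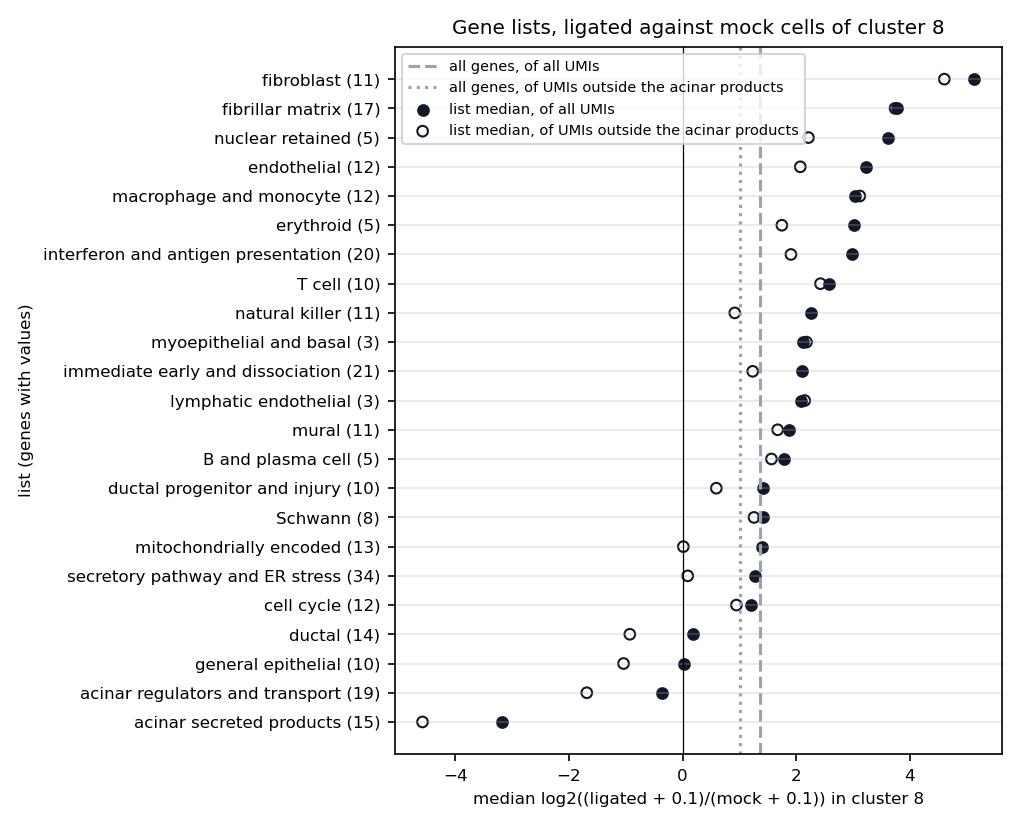
Median difference (log2, ligated over mock, with 0.1 added) of each gene list in cluster 8, with filled points for shares of all UMIs and open points for shares of UMIs outside the acinar products. Vertical lines mark the medians of all genes, 1.36 and 1.01, with fibroblast genes (5.14) at the right end and acinar secreted products (-3.18) at the left.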

How the data were processed

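Droplet single-cell RNA was measured in 1 ligated and 1 mock library. Reads were processed with Cell Ranger 6.0.1 and Seurat on build mm10, per the submitters' processing notes. The authors deposited tables of cluster means with 20140 genes, for 12 clusters of all cells and 5 clusters of a subset, each with the libraries together and split by condition. What the authors deposited is, for each gene, its UMIs per 10000 UMIs of a cell, averaged on a linear scale (a unit other than counts or CPM), read from the values, since each column sums to 10000. They were used without transformation. Filters on cells and treatment of doublets are not given in the sources used here.

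Cell numbers were recovered from the weights that join split and unsplit means. UMI totals of cells were recovered from genes with 1 UMI in 1 cell. They favour deep cells with rare genes, and a few may be wrong, since 60 totals came out for the 59 ligated cells of cluster 11. The scripts were tested on simulated data. Since cells are not replicates and each condition has 1 library, no test was run and no p-value is given. Differences used a pseudocount of 0.1, and intervals are exact at 95%. The 26 gene lists hold 362 genes, of which 25 have no row. Of 20140 symbols, 18131 matched the RefSeq gene table. Named genes are those of the lists, the 20 that most exceed all other clusters, the 10 largest differences in each direction and their gene families. The cluster, its markers and the lists were chosen with earlier results of these data known. Python 3.11.15, pandas 2.3.3, NumPy 2.4.6, SciPy 1.17.1, Biopython 1.88 and matplotlib 3.10.9 were used.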

Additional observations from a re-analysis of the deposited data

How the results depend on the processing

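The count of genes higher and lower in ligated cells moved with every threshold tried on it but 2 (pseudocount 0.01 and leaving out genes listed at 0 throughout 1 library). Against 2610 higher and 210 lower, a pseudocount of 1 gave 678 and 38, no minimum level 6698 and 416, a minimum of 2 gave 451 and 37, and a size of at least 2 gave 1596 and 69. Centring on the median gave 1154 and 683, and UMIs outside the acinar products, an alternative added after the data were seen, 1713 and 1096. The higher share of all calls fell under those last 2. With centring, which subtracts 1.36, the lists with a median above 0 went from 21 to 17. The medians that changed sign were those of the secretory pathway (-0.094), cell cycle (-0.151), ductal (-1.17) and general epithelial genes (-1.34). The last 2 also turned negative outside the acinar products (-0.93 and -1.04), and the ductal one with list genes of a mean of at least 0.5 (-1.004). Against the cell-weighted mean of the other clusters, 46 genes instead of 17 stood at least 2 times higher. The differences of the Dcpp genes, Prol1, Mucl2, Scgb1b27, Scgb2b27, Bpifa2, Wfdc18, Pip and Car6 kept the size rule under all 4 alternatives. Their direction could not have turned, since a pseudocount leaves the sign and the other alternatives lower all of these differences. Only a pseudocount of 1 could have undone the size rule. For 5 list medians there were too few genes for a value under an alternative. The mock side rests on 25 cells and 137475 UMIs, of which 3 are 0.218 per 10000. Levels weight each cell equally, so 3 UMIs gave a level of 0.0817 for Dnajb9 and 0.807 for Hba-a2, and low mock levels depend on which cells held the UMIs. No paired analysis was possible because each condition has 1 library and no test was run.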

Other observations

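In the mock cells, 551 genes had a level of at least 1. Apart from the acinar products and Mup5, 10 of these stood at least 2 times above every other mock cluster. Mup5 (1.18 UMIs per 10000) did so too, and it met both conditions in the libraries together. None of the 10 met both conditions in the libraries together. The 10 were A630073D07Rik (1.68 UMIs per 10000), Gm26870 (5.40), Aqp5 (1.34), Trim32 (2.04), Gne (1.90), Fam25c (1.29), Nupr1 (22.3), Cask (1.31), 4931406C07Rik (1.34) and Sars (2.68). The Trim32 level was 4 UMIs in the single cell of 783 UMIs. They were named after their values were seen. Nupr1, a stress-induced nuclear protein, was the highest of them and stood at 9.08 in the next mock cluster.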
